A study of Mus musculus with 14 samples.

Results

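RNA of 9 epithelial genes was compared across 14 mouse embryonic stem (ES) cell lines that differ in their sex chromosomes. The genes are *Cdh1*, *Epcam*, *Esrp1*, *Rab25*, *Slpi*, *Cldn4*, *Cldn6*, *Krt8* and *Krt18*, of 23298 genes in the table. *Rab25* and *Slpi* were picked because their values are lower in XX lines, so their XX, XY and XO values are given as a description with no test. The other 7 were listed as epithelial genes, with earlier results of these data known. All 9 passed the filter on low values.

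Each line was derived from its own blastocyst of a cross between C57BL/6J (B) and CAST/EiJ (C) mice, so that the lines of a group are separate embryos. BC lines have a C57BL/6J mother and a CAST/EiJ father, and CB lines the reverse. Both crosses gave 3 XX and 3 XY lines, and the BC cross also gave 2 XO lines, which are 39,X. All lines were undifferentiated and untreated, were grown in serum with LIF on inactivated mouse embryonic fibroblasts, and were freed of these feeders in 2 consecutive depletion steps before RNA was taken. The CB XX lines carry the numbers of their columns, which could not be tied to their sample names.

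The cells of an epithelium are held together at their sides by adherens junctions, tight junctions and desmosomes, and carry keratin filaments inside. ES cells, like the epiblast they come from, are themselves epithelial and depend on E-cadherin for their compact colonies. When cells change towards a mesenchymal state, repressors of the Snail and Zeb families bind E-box sequences in the promoters of *Cdh1* and other epithelial genes, and the splicing program set by Esrp1 is lost.

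Promoters of 7 members were in the RefSeq table used here (GRCm38.p6), those of *Cdh1* and *Esrp1* not. The E-box letters that Snail and Zeb repressors are known for, CACCTG on either strand (CAGGTG on the other), were looked for in the 250 bases before each start site. They were found at least 1 time in all 7, against 17.22% of the 32851 promoters in the table. By gene, 19.43% of 27025 genes had the letters, as did 18 of the 37 genes with an entry from a wider list of 65 epithelial genes and 0 of 12 from a list of 25 mesenchymal genes. The Grainyhead letters AACCGGTT were found in 0 of the 7, against 0.1157% of promoters. These matches are letters only, and binding was not measured. The stretches of *Rab25* and *Slpi* are shown because their RNA was lowest in XX lines beside the rest, and those of *Epcam* and *Cldn4* because their E-boxes lie closest to the start site. Each is written 5′ to 3′ along the gene's strand and ends at the base before the start site, with E-boxes in capitals. All matched mm9 exactly, *Rab25* at chr3:88352202-88352451 (minus strand), *Slpi* at chr2:164182244-164182493 (minus strand), *Epcam* at chr17:88035069-88035318 (plus strand) and *Cldn4* at chr5:135422805-135423054 (minus strand).
Rab25: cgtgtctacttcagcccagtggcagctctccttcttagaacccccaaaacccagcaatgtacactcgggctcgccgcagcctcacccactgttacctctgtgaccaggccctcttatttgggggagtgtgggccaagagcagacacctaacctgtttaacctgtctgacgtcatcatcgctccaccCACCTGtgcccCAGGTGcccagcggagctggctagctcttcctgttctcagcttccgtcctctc
Slpi: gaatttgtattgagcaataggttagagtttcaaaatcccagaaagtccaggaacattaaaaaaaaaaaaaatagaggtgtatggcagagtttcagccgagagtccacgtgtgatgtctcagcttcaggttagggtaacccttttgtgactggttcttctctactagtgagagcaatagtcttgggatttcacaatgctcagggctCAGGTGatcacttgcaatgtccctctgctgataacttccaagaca
Epcam: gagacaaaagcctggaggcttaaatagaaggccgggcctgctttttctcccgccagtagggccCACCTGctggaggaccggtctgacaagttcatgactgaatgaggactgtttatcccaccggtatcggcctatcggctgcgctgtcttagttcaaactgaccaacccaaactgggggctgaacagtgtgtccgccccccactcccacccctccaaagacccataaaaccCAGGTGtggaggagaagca
Cldn4: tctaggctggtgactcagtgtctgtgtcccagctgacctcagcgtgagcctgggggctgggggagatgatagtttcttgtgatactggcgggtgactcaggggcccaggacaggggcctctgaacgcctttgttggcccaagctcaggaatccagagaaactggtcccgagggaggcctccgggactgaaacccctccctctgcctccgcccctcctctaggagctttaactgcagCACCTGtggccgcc
The E-boxes of *Rab25* begin at positions -64 and -53 from the start site and face each other on opposite strands, that of *Slpi* begins at -45, those of *Epcam* at -187 and -19, and that of *Cldn4* at -14. Single E-boxes begin at -93 in *Cldn6*, -111 in *Krt8* and -214 in *Krt18*. The *Rab25* stretch overlaps the 5′ end of the gene as GENCODE gives it by 21 bases, and the *Slpi* stretch lies within the span of a longer GENCODE transcript.

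The deposited values are a read signal per gene, brought to a common depth by the authors, and each line sums to between 28150946 and 30657803. Nearly all values of a line are whole multiples of 1 step, and with a step taken as 1 read the lines hold from 11904429 (CB XY 2) to 69646316 reads (BC XX 2). In 2 lines labelled XY the Y-linked *Uty* did not exceed the XX lines: its values were 19.6 in CB XY 2 and 45.4 in CB XY 3, against 945 to 2088 in the other 4 XY lines and 12.8 to 195 in the XX lines. *Ddx3y* was 27.0 and 126 in these 2 lines, 1084.5 to 2268 in the other 4 XY lines and 49.7 to 1024 in the XX lines. *Eif2s3y* and *Kdm5d* did not separate XX from XY lines, and *Kdm5d* was higher in BC XX than in BC XY lines by 2.13 ± 0.56 (limma, adjusted p = 0.0407). The main results that rest on CB XY 2 and CB XY 3 are therefore also given without them. The 7 ES cell markers, such as *Pou5f1* and *Nanog*, were present in every line, with summed values of 59493 to 109443, and 0 of the 7 differed between XX and XY lines. The summed value of the 25 mesenchymal genes was 191717 to 417958 in the BC XX lines and 64206 to 113948 in all other lines, and *Uty* was also highest among XX lines in the BC XX lines. In bulk RNA, fewer cells of a type and less RNA per cell cannot be told apart.

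Per kilobase of exon, the mean signal over the 14 lines was 2742 ± 842 (SD, n = 14) for *Cdh1*, 2354 ± 1299 for *Cldn4*, 2063 ± 1289 for *Krt8*, 1780 ± 1266 for *Krt18* and 1753 ± 463 for *Epcam*. Neighbours among these 5 differed by less than the spread between lines, and their order changed with the group. *Cdh1* had the highest group mean in the BC XY lines (3312), *Krt8* in the BC XX (2026) and XO lines (3743) and *Cldn4* in the CB XX (2177) and CB XY lines (3424), while *Krt8* (553) and *Krt18* (550.1) were far lower in the CB XX lines. *Cldn6* (777 ± 468) and *Esrp1* (315 ± 129) were lower, and *Rab25* (88.1 ± 55.0) and *Slpi* (26.0 ± 21.6) lowest. *Rab25* and *Slpi* were thus trace transcripts beside the junction and keratin genes. From the lowest to the highest line, *Cldn6* differed 27.5-fold, *Krt8* 27.0-fold, *Krt18* 25.9-fold and *Cdh1* 2.80-fold. No such fold is given for *Slpi*, whose lowest value stands for 1 read.

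**Figure D1:**
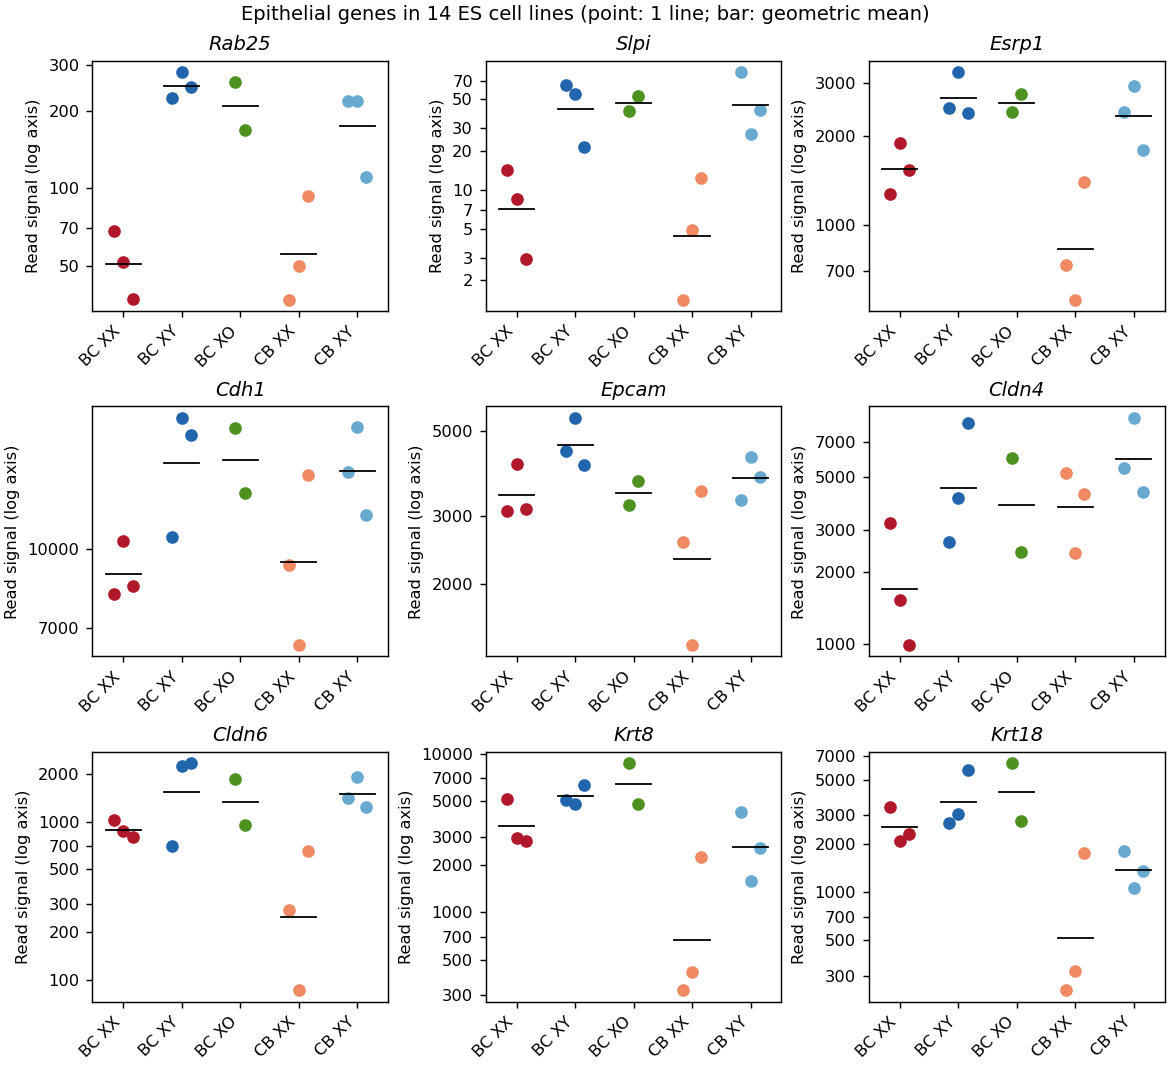
Read signal of the 9 genes (log axis) in each ES cell line by group, with a bar at the geometric mean of the group. In *Rab25* and *Slpi*, picked for this, all 6 XX lines lie below all 6 XY lines, while the other 7 genes overlap, and CB XX lines reach the lowest values of *Cldn6*, *Krt8* and *Krt18*.

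*Rab25* (mm9 chr3:88345951-88352222, minus strand), an epithelial small GTPase of the Rab11 group that recycles membrane proteins to the cell surface, had values of 68.4, 51.7 and 37.3 in the BC XX lines and of 224, 282 and 248 in the BC XY lines. The CB XX lines had 37.0, 49.96 and 93.3 and the CB XY lines 218, 219 and 110. The XO lines had 258 and 168, within or near the range of XY lines and above all XX lines. The mean was 56.3 ± 21.5 over the 6 XX lines and 217 ± 57.6 over the 6 XY lines, a ratio of 3.85 (4.78 among BC and 3.04 among CB lines). CB XX 3 and CB XY 3 came closest to each other, and without CB XY 2 and CB XY 3 the CB XY value is that of CB XY 1, 218, and the CB ratio 3.63.

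*Slpi* (chr2:164179806-164214831, minus strand), a secreted inhibitor of serine proteases made by mucosal epithelia, had values of 14.3, 8.55 and 2.95 in the BC XX lines and of 64.9, 54.9 and 21.4 in the BC XY lines. The CB XX lines had 1.42, 4.87 and 12.4 and the CB XY lines 80.8, 27.0 and 41.5. The XO lines had 40.7 and 53.4. Again every XX line was below every XY and XO line. The mean was 7.42 ± 5.22 in XX and 48.4 ± 22.8 in XY lines (SD, n = 6 each), a ratio of 6.53. Within the CB cross the ratio was 7.97, and 12.9 with CB XY 1 as the only XY line. On the basis of the step, these values stand for few reads, from 1 in CB XX 1 and 3 in BC XX 3 to 75 in XO 2 (3 reads is the limit that a count of 0 allows). On the log2(value + 5) scale, which understates changes of low genes, the XX lines were lower by 2.10 for *Slpi* and by 1.87 for *Rab25*. All XX lines lay below all XY lines in 1.23% of the 15311 genes tested, and in the 9 genes only in these 2, which were picked for it.

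*Cdh1* (chr8:109127251-109194146, plus strand), which encodes E-cadherin, the adhesion protein of adherens junctions, had values of 8144, 10376 and 8454 in the BC XX lines and 10570, 18115 and 16766 in the BC XY lines. It had values of 9283, 6467 and 14003 in the CB XX lines and 14179, 17345 and 11665 in the CB XY lines. The groups did not overlap in the BC cross, while in the CB cross CB XX 3 was above CB XY 3. How many of all genes separate the XX and XY lines of a cross was not counted, so no weight is put on this. Over both crosses the XX lines were lower by 0.66 ± 0.18 (SE) on the log2 scale, which did not pass the FDR of 0.05 over all genes (limma, Benjamini-Hochberg adjusted p = 0.0553). With the cross as a covariate the same difference passed (adjusted p = 0.0379). *Cdh1* lies on chromosome 8, whose genes were raised as a whole in CB XX 3 and CB XY 1, with median deviations of 0.27 and 0.33 (log2) against -0.20 to 0.04 in the other lines. The 2 genes most like *Cdh1* over the 14 lines, *Gab1* (r = 0.95) and *Rab11fip1* (r = 0.94), lie on chromosome 8 as well. The part of chromosome 8 in the values of *Cdh1* was not tested.

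*Epcam* (chr17:88035319-88050446, plus strand), an adhesion protein of epithelial and ES cells, had values of 3100, 4100 and 3136 in the BC XX lines, 4443, 5412 and 4081 in the BC XY lines, 2580, 1389 and 3491 in the CB XX lines and 3316, 4288 and 3794 in the CB XY lines. The groups overlapped in both crosses. The XX lines were lower by 0.57 ± 0.22 on the log2 scale, without passing the FDR (limma, adjusted p = 0.140).

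*Esrp1* (chr4:11259080-11313930, minus strand), which encodes the RNA-binding protein that keeps epithelial splice forms of many transcripts, was the only gene of the 7 that was called between XX and XY lines. It had values of 1267, 1882 and 1526 in the BC XX lines and 2469, 3267 and 2393 in the BC XY lines. The CB XX lines had 735, 559 and 1395 and the CB XY lines 2411, 2930 and 1789. Within each cross all XX lines were below all XY lines, and over the crosses only BC XX 2 rose above CB XY 3. The share of all genes that separate so within a cross was not counted, so no weight is put on it. The mean was 1228 ± 497 in XX and 2543 ± 508 in XY lines (SD, n = 6 each), and XX lines were lower by 1.14 ± 0.26 (SE) on the log2 scale (limma, Benjamini-Hochberg adjusted p = 0.0240). The call was lost without CB XY 2 and CB XY 3 (difference -1.20, adjusted p = 0.0673), without BC XY 2 (-1.06, 0.0586), without CB XY 1 (-1.15, 0.0504) and without CB XY 2 (-1.10, 0.0577), with a difference of about the same size each time. An antisense noncoding gene, *Gm16652*, overlaps *Esrp1*, and the strand setting of the counting was not given in the sources used here.

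The claudins seal tight junctions. *Cldn4* (chr5:135420996-135422804, minus strand) had values of 3208, 1530 and 989 in the BC XX lines, 2658, 4053 and 8410 in the BC XY lines, 5185, 2407 and 4224 in the CB XX lines and 5449, 8805 and 4327 in the CB XY lines. It overlapped in both crosses, and the XX lines were lower by 1.03 ± 0.39 on the log2 scale (limma, adjusted p = 0.137). *Cldn6* (chr17:23816332-23819413, plus strand), a claudin of ES cells and embryonic epithelia, had values of 1018, 868 and 797 in the BC XX lines and 696, 2263 and 2343 in the BC XY lines. In the CB cross the XX lines had 277, 85.3 and 651 and the XY lines 1418, 1926 and 1231. These did not overlap, but the share of all genes that separate so within a cross was not counted. Over both crosses *Cldn6* was lower in XX lines by 1.67 ± 0.52 (limma, adjusted p = 0.0783), and with the cross as a covariate this passed (adjusted p = 0.0349). *Cldn6* and *Epcam* lie on chromosome 17, whose genes had median deviations of -0.20 in CB XX 2 and -0.24 in BC XX 3 (log2). In the other lines the median ran from -0.07 to 0.14. The part of chromosome 17 in the values of these 2 genes was not tested.

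*Krt8* (chr15:101827142-101834773, minus strand) and *Krt18* (chr15:101858647-101862457, plus strand) encode the pair of keratins that build the filaments of simple epithelia. *Krt8* had values of 5195, 2940 and 2834 in the BC XX lines, 5144, 4794 and 6315 in the BC XY lines, 323, 423 and 2251 in the CB XX lines and 4283, 1579 and 2544 in the CB XY lines. *Krt18* had values of 3390, 2085 and 2289, of 2710, 3061 and 5729, of 245, 324 and 1742 and of 1795, 1061 and 1359 in the same groups. Both were lowest by far in CB XX 1 and CB XX 2, while CB XX 3 lay among the CB XY lines. The XX lines were lower by 1.27 ± 0.62 in *Krt8* and 0.96 ± 0.63 in *Krt18* (log2, limma, adjusted p = 0.238 and 0.385). Another place in the genome holds a copy of *Krt8* with 97.9% identity, and another a copy of *Krt18* with 90.3%, so that reads of these genes could have been split.

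**Figure D2:**
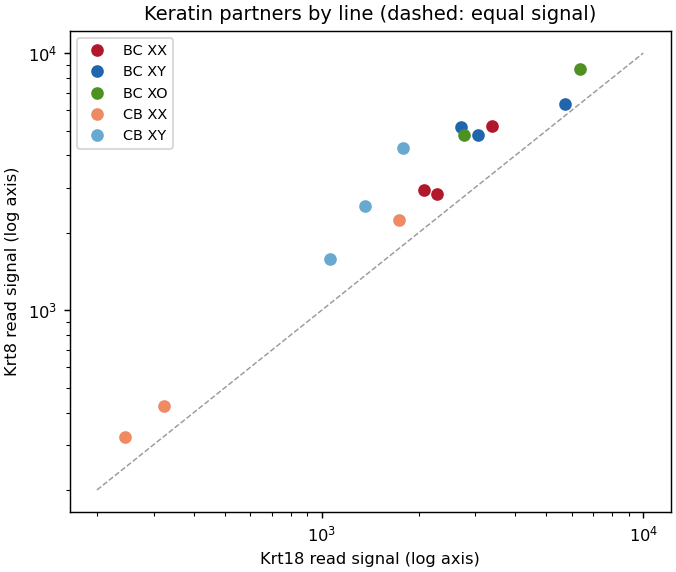
*Krt8* against *Krt18* read signal (log axes), 1 point per line, with a dashed line at equal signal. CB XX 1 and CB XX 2 sit apart at the low end, and the ratio of *Krt8* to *Krt18* stays between 1.10 and 2.39.

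Between all XX and all XY lines, 1 of the 7 tested genes was thus lower in XX lines at the FDR of 0.05, where 1.99% of all 15311 genes were. All 7 had differences below 0, with a median of -1.03 against -0.03 over all genes. An unadjusted p under 0.05 was found in 5 of the 7, and in 3544 of all 15311 genes in either direction. The gene just inside the threshold was *Esrp1* and the next outside was *Cdh1*. The count depended on how the crosses were treated. With cross in the model 3 of 7 were called, where 786 of all 15311 genes were lower in XX lines. With the mean of both crosses from the model of 5 groups 4 of 7 were called, where 1013 of all 16261 genes were lower. The 4 then included *Krt8* (limma, adjusted p = 0.0465).

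Within the BC cross, 0 of the 7 differed between XX and XY lines (limma, adjusted p from 0.108 to 0.625), where 1.24% of all 16261 genes were called lower. An unadjusted p under 0.05 was found in 3 of the 7, and in 3749 of all genes. *Cldn4* came closest, lower in XX by 1.40 ± 0.49 (adjusted p = 0.108), and it was called without BC XX 1 (-1.86, 0.0426). *Esrp1* was lower by 0.80 ± 0.28 (adjusted p = 0.113). In the CB cross 2 of the 7 were lower in XX lines, where 1.46% of all genes were. *Esrp1* was lower by 1.48 ± 0.28 (limma, adjusted p = 0.0135) and *Cldn6* by 2.55 ± 0.58 (adjusted p = 0.0268), while *Krt8* was lower by 1.93 ± 0.56 without passing (adjusted p = 0.0773). Without CB XY 2 and CB XY 3, which leaves CB XY 1 alone in its group, 0 of 7 were called, with differences of -1.53 for *Esrp1* and -2.48 for *Cldn6* (adjusted p = 0.118 and 0.246). Both calls were also lost without CB XX 2 (adjusted p = 0.0706 and 0.117), without CB XY 1 (0.0577 and 0.0896) and without CB XY 2 (0.0608 and 0.101), and that of *Cldn6* without CB XY 3 (0.0518). CB XX 3 was the highest of the CB XX lines in 8 of the 9 genes. Without CB XX 3, 5 of 7 were called, where 310 of all 16221 genes were lower in CB XX lines. Among the 5 were *Krt8* with a difference of -2.79 (limma, adjusted p = 0.00391), *Krt18* with -2.27 (0.00748) and *Epcam* (0.0359).

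**Figure D3:**
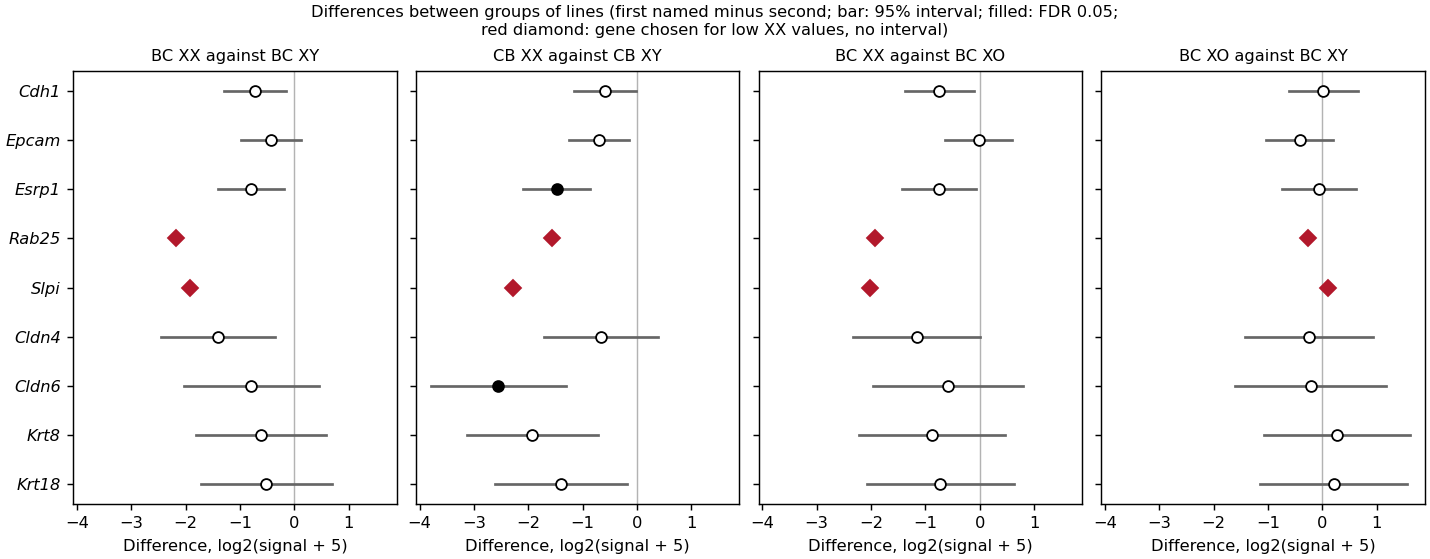
Differences between groups of lines in log2(signal + 5), first group minus second, with 95% intervals from limma for the 7 tested genes. Filled points pass the FDR of 0.05, *Esrp1* and *Cldn6* in the CB cross, and red diamonds mark *Rab25* and *Slpi*, shown with no interval because they were picked for low XX values. In the XO against XY panel the intervals of all 7 tested genes span 0.

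The XO lines carry 1 X chromosome and no Y. *Cdh1* had values of 17337 and 12872 in them, *Epcam* 3217 and 3712, *Esrp1* 2401 and 2764, *Cldn4* 5975 and 2411, *Cldn6* 1863 and 954, *Krt8* 8709 and 4802 and *Krt18* 6337 and 2769. XO 1 exceeded XO 2 in all of these but *Epcam* and *Esrp1*. Against BC XY lines, 0 of 7 differed (limma, adjusted p = 0.999 for each, 0 at an unadjusted p under 0.05), where 0.00615% of all genes did. The differences ran from -0.42 (*Epcam*) to 0.27 (*Krt8*), but with 2 lines the intervals were wide: that of *Cdh1* reached from -0.62 to 0.65 and that of *Krt8* from -1.08 to 1.61. *Rab25* was lower in XO than in BC XY lines by 0.26 and *Slpi* higher by 0.10 on the log2 scale. BC XX against XO lines, which share the BC XX lines with the comparison above, had 0 of 7 called (limma, adjusted p from 0.149 to 0.981), where 1.61% of all genes were lower in XX. An unadjusted p under 0.05 was found in 2 of the 7, and in 3851 of all 16261 genes. *Cdh1*, *Esrp1*, *Rab25* and *Slpi* were lower in every BC XX line than in either XO line. *Rab25* and *Slpi* were picked for low XX values. How many of all genes separate these few lines in the same way was not counted, so no weight is put on it. *Cdh1* was lower by 0.74 ± 0.30 and *Esrp1* by 0.74 ± 0.32 (limma, adjusted p = 0.149 and 0.175), whereas *Epcam* differed by -0.02 with an interval from -0.64 to 0.60.

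The crosses were compared over XX and XY lines together, with sex as a covariate, a comparison that neither *Rab25* nor *Slpi* was picked on. Of the 9 genes, 2 were lower in CB lines, where 5.03% of all genes were. *Krt18* was lower in CB lines by 1.84 ± 0.40 and *Krt8* by 1.71 ± 0.43 (limma, Benjamini-Hochberg adjusted p = 0.0146 and 0.0225). In both sexes the BC mean was higher, for *Krt8* 3656 ± 1333 against 999 ± 1085 in XX lines and 5418 ± 796 against 2802 ± 1370 in XY lines (SD, n = 3 each). The call of *Krt8* was lost without CB XX 2 (adjusted p = 0.0519) and without CB XY 2 (0.0503), and without CB XY 2 and CB XY 3 both calls were lost (0.0777 for *Krt8* and 0.0552 for *Krt18*), with differences of -1.69 and -1.85. *Rab25* differed between crosses by -0.19 (95% interval -0.75 to 0.36, adjusted p = 0.644) and *Slpi* by -0.12 (-0.86 to 0.63, adjusted p = 0.846). *Cldn4* went the other way, higher in CB lines by 0.77 ± 0.33, without passing (adjusted p = 0.133).

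Whether the difference between XX and XY lines itself differed between the crosses was tested as an interaction. It passed in 0 of the 9 genes (limma, adjusted p from 0.548 to 0.951), where 0.0738% of all genes passed. The estimate was -1.76 for *Cldn6* (95% interval -3.51 to -0.01, unadjusted p = 0.0490) and -1.31 for *Krt8* (-3.01 to 0.39), negative values being a larger deficit in CB XX lines. For *Rab25* it was 0.63 (-0.44 to 1.70) and for *Slpi* -0.37 (-1.84 to 1.10). So the calls of *Esrp1* and *Cldn6* in the CB cross alone were not shown to be particular to it.

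Across the 14 lines all 36 pairs of the 9 genes had a positive Pearson r of log2(value + 5), from 0.04 to 0.98 with a median of 0.66. After group means were removed the median was 0.52, and not all pairs stayed positive. *Slpi* then had r of -0.22 with *Cldn4*, -0.04 with *Cdh1* and -0.03 with *Cldn6*. The share of positive pairs among all genes was not counted. The lines share groups, scaling and culture, and *Rab25* and *Slpi* were picked for the same pattern, so these are descriptions. *Krt8* and *Krt18* were closest, with r = 0.98. Over all genes with a mean signal of 50 or more, those most like *Rab25* were *Mapk3* (r = 0.95), *Plcb3*, *Prss8*, *Dock9* and *Trappc12* (down to 0.93). Those most like *Slpi* were *Limd2* (r = 0.96), *Degs2*, *Plxnb1*, *Eno3* and *Pbx2* (down to 0.90), and *Rab25* stood at rank 13 among them (r = 0.89). Those most like *Cdh1* after the chromosome 8 genes were *Cgn*, *Cds1* and *Tmc4*, with r of 0.92 to 0.93. Of the members, *Slpi* (r = 0.89) was nearest to *Rab25*, followed by *Cdh1* (r = 0.83) and *Esrp1* (r = 0.82).

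Epithelial genes beyond the 9 were taken from a list of 65, of which 60 were tested between XX and XY lines. At the FDR of 0.05, 12 were lower in XX lines and 0 higher, where 1.99% of all genes were lower and 3.21% higher, 50 of the 60 differences lay below 0, and their median was -0.55 against -0.03 over all genes. The list was put together with earlier results on these lines known, and so is not independent evidence of the direction. Tight junction genes gave 4 of the 12, *Cgn*, *Cldn7*, *F11r* and *Marveld3*, of 14 tested. Polarity and traffic genes gave 4 of 10, *Crb3*, *Ap1m2*, *Pard6b* and *Lsr*, and surface proteins and protease control 2 of 8, with *Prss8* among them. Adherens junctions gave 1 of 8 (*Pvrl2*) and desmosomes 1 of 8 (*Pkp2*), while 0 of 4 keratins and 0 of 8 epithelial regulators were called. An unadjusted p under 0.05 was found in 1 of the keratins and 3 of the regulators, and in 3544 of all 15311 genes.

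*Cgn*, the tight junction plaque protein cingulin, had the smallest p of the list. Its values in XX lines were 458 at the lowest, 661 at the median and 934 at the highest, against 1273, 1692 and 2358 in XY lines, with no overlap. It was lower in XX lines by 1.39 ± 0.20 on the log2 scale (limma, Benjamini-Hochberg adjusted p = 0.00169), and was called under all 23 alternatives tried at that FDR, with an adjusted p of at most 0.00739. *Ap1m2*, an adaptor subunit that sorts proteins to the basolateral membrane of epithelial cells, had a low, median and high value of 60.9, 270.0 and 415 in XX lines and of 539, 836 and 911 in XY lines, and was lower by 1.95 ± 0.40 (adjusted p = 0.0156). *Prss8*, a membrane-bound serine protease, was lower by 1.02 ± 0.24 (adjusted p = 0.0232) and is also among the genes most like *Rab25*. The polarity genes *Crb3* and *Pard6b* were lower by 1.52 ± 0.31 and 0.83 ± 0.19, *Cldn7* by 1.30 ± 0.28 and the junction adhesion molecule *F11r* by 0.70 ± 0.17. The 12 calls fell to 1 at an FDR of 0.01 and to 3 without CB XY 2 and CB XY 3. They fell to 5 without BC XY 2 or CB XY 2, to 6 without CB XY 1 and to 7 without CB XX 2. With cross in the model they rose to 21. Over all genes, 305 were lower in XX lines in the main fit, 31 at an FDR of 0.01, 81 without CB XY 2 and CB XY 3, and 786 with cross in the model. Of 61 genes tested within the crosses, 4 were lower and 1 higher in BC XX than in BC XY lines, where 1.24% of all genes were lower, and 4 lower and 0 higher in CB XX than in CB XY lines, where 1.46% were lower. The 4 lower calls in the BC cross became 0 without BC XX 3, BC XY 2 or BC XY 3, 1 without BC XX 2 and 10 without BC XY 1. Those in the CB cross became 0 without CB XX 2, CB XY 1, CB XY 2 or CB XY 2 and CB XY 3 together, 1 without CB XX 1, 7 without BC XX 3 and 9 without CB XX 3. At an FDR of 0.01 the lower calls were 0 in both crosses, where 19 (BC) and 26 (CB) of all genes were lower. With no filter on low values they were 2 in each cross, where 131 (BC) and 187 (CB) of all genes were lower. With the replicate block those in the BC cross were 0, where 0 of all genes were called. Between XO and BC XY lines 0 of 61 were called, with a median difference of -0.04. An unadjusted p under 0.05 was found in 1 of the 61, and in 242 of all 16261 genes.

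**Figure D4:**
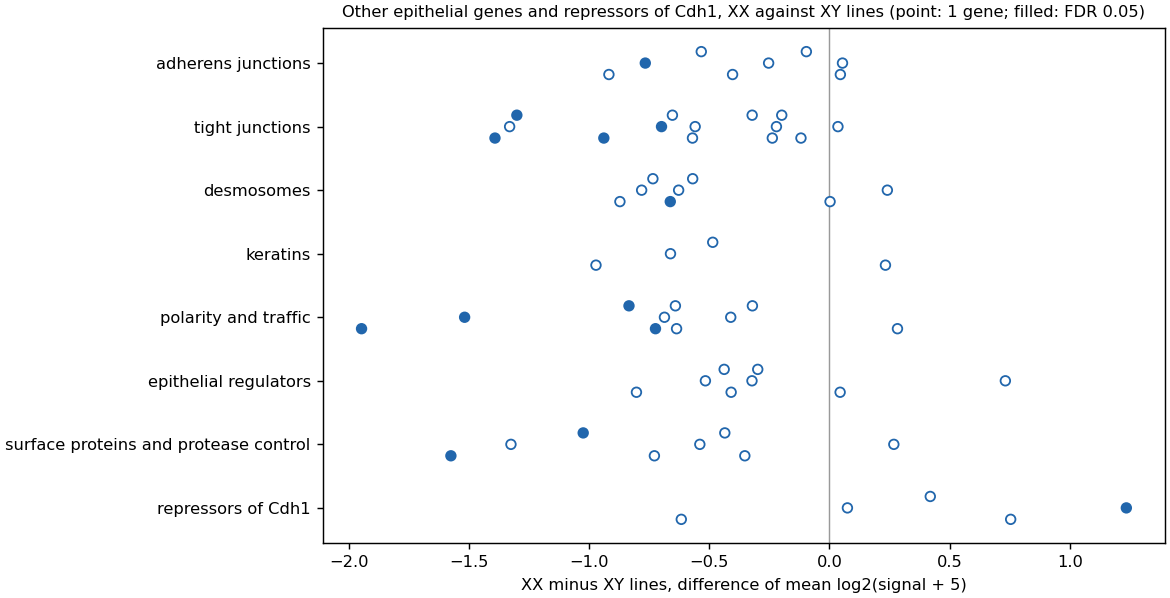
Difference of XX minus XY lines in mean log2(signal + 5) for other epithelial genes by class and for 5 repressors of *Cdh1*, 1 point per gene, filled where the FDR of 0.05 was passed. Of 60 epithelial genes, 50 lie left of 0 and all 12 filled points among them do, and *Zeb1* is the filled point on the right.

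Of the 5 repressors of *Cdh1* that were listed, 1 was higher in XX lines at the FDR of 0.05, where 3.21% of all genes were. *Zeb1*, which binds E-boxes of the kind shown above, had values of 1451, 1581 and 2218 in the BC XX lines, 482, 611 and 843 in the BC XY lines, 706 and 791 in the XO lines, 1013, 1250 and 1449 in the CB XX lines and 567, 459 and 824 in the CB XY lines. All 6 XX lines were above all XY and XO lines. How many of all genes separate in this direction was not counted, so no weight is put on it. From BC XX 1 to BC XX 3, *Zeb1* rose in the same order as the summed value of the mesenchymal genes (191717, 295291 and 417958). The part of that level in *Zeb1* was not tested. The difference of *Zeb1* between XX and XY lines was 1.24 ± 0.20 on the log2 scale (limma, adjusted p = 0.00361), and it was called under all 23 alternatives (adjusted p at most 0.0134). It was called in the BC cross (1.44, adjusted p = 0.00655), under 22 of 23 alternatives and not with the replicate block (0.0614). It was called in the CB cross (1.03, adjusted p = 0.0388), but not without CB XY 2 and CB XY 3 (1.10, 0.173), nor without CB XX 2 (0.139), CB XX 3 (0.0977), CB XY 1 (0.131), CB XY 2 (0.157), BC XX 2 (0.0589) or BC XY 2 (0.0570). *Zeb2*, a close relative, was higher in BC XX than in BC XY lines by 1.81 ± 0.39 (adjusted p = 0.0166), where 4.46% of all genes were higher, and differed by -0.30 ± 0.39 in the CB cross (adjusted p = 0.728). *Snai1*, *Snai2* and *Twist1* were not called in either cross. *Snai1* went the other way from *Zeb1*, lower in XX than in XY lines by 0.62 ± 0.33 (limma, adjusted p = 0.281). Of the 5 repressors, 1 had a difference below 0 in the BC cross (median 0.80) and 3 in the CB cross (median -0.30).

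Mesenchymal genes moved with XX lines in the BC cross. Of 25 listed genes, 20 were higher in BC XX than in BC XY lines, where 4.46% of all genes were. The count was 9 without BC XX 3, 11 without BC XX 2 or BC XY 2, 13 without BC XY 3, and 10 at an FDR of 0.01. With the replicate block it was 0, where 0 of all genes were called. Between CB XX and CB XY lines 0 were called, with 1 at an unadjusted p under 0.05, as were 3032 of all 16261 genes. Of the 25 differences 4 lay below 0, and their median was 0.32 against -0.02 over all genes. The interaction of sex and cross passed in 0 of the 25 genes, where 0.0738% of all genes passed. All 25 estimates lay below 0, a smaller excess in CB XX lines. An unadjusted p under 0.05 (limma) was found in 20 of them, and in 1471 of all 16261 genes. The summed values were 67296 to 92137 in CB XX and 65390 to 83758 in CB XY lines. Over the 14 lines, Pearson r with the mean log2 level of the 25 genes was -0.86 for *Cldn4*, -0.63 for *Rab25*, -0.60 for *Cdh1*, -0.40 for *Slpi*, -0.26 for *Esrp1*, -0.24 for *Cldn6*, -0.20 for *Epcam*, 0.09 for *Krt8* and 0.11 for *Krt18*, and after group means were removed -0.81 for *Cldn4*, -0.42 for *Cldn6*, -0.36 for *Cdh1*, -0.18 for *Rab25*, -0.17 for *Epcam*, -0.04 for *Esrp1*, 0.15 for *Krt18*, 0.27 for *Krt8* and 0.40 for *Slpi*. *Cldn4* was the gene that followed this level most. The part of the mesenchymal level in the BC differences was not tested. In the CB cross *Esrp1* was 2.65 times and *Cldn6* 4.51 times as high in XY as in XX lines (2.69 and 4.20 times without CB XY 2 and CB XY 3). The part of the mesenchymal level in these CB differences was not tested either.

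**Figure D5:**
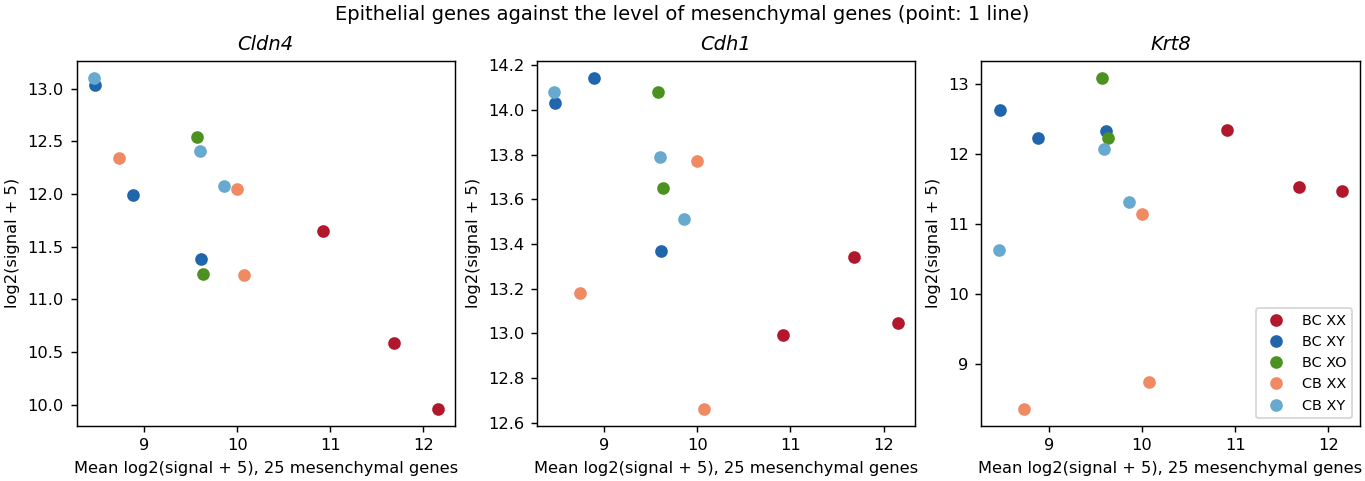
Level of *Cldn4*, *Cdh1* and *Krt8* in log2(signal + 5) against the mean log2(signal + 5) of 25 mesenchymal genes, 1 point per line. BC XX lines lie to the right, and *Cldn4* falls along the axis (r = -0.86) while *Krt8* shows no such trend (r = 0.09).

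Trophectoderm and primitive endoderm also express keratins and claudins, and their markers were followed for this reason. The summed value of 6 trophectoderm genes was 2012 to 3192 in XX, 2851 to 4041 in XY and 2535 to 4981 in XO lines. It was 2012 to 2404 in BC XX and 3104 to 3462 in BC XY lines, and 2483 to 3192 in CB XX and 2851 to 4041 in CB XY lines. Between XX and XY lines 0 of 5 tested were called, with 3 at an unadjusted p under 0.05, as were 3544 of all 15311 genes. All 5 differences lay below 0, with a median of -0.93 against -0.03 over all genes. The summed value of 7 primitive endoderm genes was 434 to 1283 in XX, 535 to 1228 in XY and 790 to 1286 in XO lines. Of these, 0 of 6 were called, with 2 at an unadjusted p under 0.05, as were 3544 of all 15311 genes. Below 0 lay 5 of the 6 differences (median -0.34). In the CB cross the primitive endoderm sum was 434 to 661 in XX and 535 to 1141 in XY lines. There 1 of 6 genes was called lower in XX, where 1.46% of all genes were. The part of primitive endoderm in the low keratins of CB XX 1 and CB XX 2 was not tested.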

How the data were processed

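RNA-seq of 14 ES cell lines was used, with 3 lines in each group and 2 of BC XO. According to the study's methods and the submitters' processing notes, stranded total RNA libraries were aligned to mm9 with TopHat2 and compared with Cuffdiff. The deposited values are a read signal per gene that the authors scaled to a common depth before deposit. The step that most values are multiples of gave the depth of each line, which sets only counting error. Values were used as log2(value + 5) and fitted with limma 3.58.1 (trended variance) in R 4.3.3, with p adjusted by Benjamini-Hochberg over every gene tested and an FDR of 0.05. Genes needed a value of 10 or more in 6 lines (XX against XY, crosses) or in 2 lines (model of 5 groups). Left out were 15 genes at 0 in a whole group that reached 100 elsewhere. Tables were read with Python 3.11.15 and pandas 2.3.3. The test was checked on simulated data with 200 changed genes.

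The members and lists were chosen with earlier results of these data known. Named genes are the 9 members, the 8 other epithelial genes with the smallest adjusted p (1 is not reported here), the 5 repressors of *Cdh1*, the 5 genes most like *Rab25*, *Slpi* and *Cdh1*, and marker genes of ES cells and Y-linked genes. Other genes called from the list of 65 were named after their values were seen. Alternatives changed scaling, pseudocount, filter, threshold, covariate, block and the lines used. Promoters came from RefSeq (GRCm38.p6) and were placed on mm9 by exact match.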

Additional observations from a re-analysis of the deposited data

Results flagged for a closer look

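In 1 of 18 sets of lines checked (the 9 genes in the 6 XX and in the 6 XY lines), a line stood apart from the rest of its group. *Rab25* was 110 in CB XY 3, against 218 to 282 in the other 5 XY lines, and the gap to the next line took 0.724 of the whole range on the log2 scale. Chance flags about 1 in 20 such sets. CB XY 3 is also 1 of the 2 lines labelled XY in which *Uty* did not exceed the XX lines, and in the other of them, CB XY 2, *Rab25* was 219.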

How the results depend on the processing

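No difference of a tested gene that was called changed its direction under any alternative. Between XX and XY lines, where 1 of the 7 genes was called, the count was 0 at an FDR of 0.01, 0 without CB XY 2 and CB XY 3, 3 with cross in the model and 4 with the mean of the crosses in the model of 5 groups, and 0 to 3 with 1 line left out. In the BC cross it was 0, and 0 to 1 with 1 line left out. In the CB cross it was 2, and 0 at an FDR of 0.01, 0 without CB XY 2 and CB XY 3, 1 with no filter on low values and 0 to 5 with 1 line left out. Between the crosses it was 2, and 0 at an FDR of 0.01, 0 without CB XY 2 and CB XY 3 and 1 to 2 with 1 line left out. The causes were not tested, beyond the fewer lines or stricter threshold that an alternative itself brings. The difference of *Slpi* depended on the pseudocount: between XX and XY lines -1.27 with a pseudocount of 20, in the BC cross -1.18, and in the CB cross -1.36, or -3.00 with a pseudocount of 1. Over all genes, 797 were called between XX and XY lines, and 183 at an FDR of 0.01, 1697 with cross in the model, 2335 with the mean of the crosses and 410 to 1746 with 1 line left out. The 927 calls in the BC cross fell to 229 without BC XX 3, the 581 in the CB cross to 145 without CB XY 1, the 758 between BC XX and XO lines to 5 without XO 1 and the 2043 between crosses to 794 without CB XX 1. Line numbers do not pair the BC XX and BC XY lines: deviations of same-numbered lines had r of -0.17, 0.27 and -0.05, and 2 of the 6 lines resembled their own number most. With the replicate block, on these 6 lines, 0 genes were called, against 628 without it on the same lines, and 0 of the 7 tested genes either way. A count test on reads was not run, because a few values of each line are no whole multiples of its step. *Slpi* is limited by depth, and the BC XO comparisons by 2 lines.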
